A study of Mus musculus with 6 samples.

Results

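The tumour necrosis factor (TNF) superfamily and its signalling adaptors were examined for binding of Eomes, a T-box factor that natural killer (NK) cells need to mature. The genes were chosen by symbol: every symbol beginning Tnfsf or Tnfrsf, Traf followed by 1 digit, and Tnf, Lta, Ltb, Ltbr, Fas, Fasl, Cd27, Cd40, Cd40lg, Cd70, Tradd and Fadd. The peak lists held 47 of these among 23269 gene symbols, and the same rule found 51 among 21887 protein-coding RefSeq genes. The 51 were 18 ligands, 24 receptors and 9 adaptors.

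Eomes was immunoprecipitated (IP) from chromatin of NK cells of the spleen, purified from splenocytes that were pooled over wild-type (WT) C57BL/6 animals, 8 to 12 weeks of age, and expanded in culture for 4 days with 100 ng/mL IL-15, a growth cytokine of NK cells. Each of 3 separate experiments gave 1 IP library made with an anti-Eomes antibody and 1 input library, prepared without immunoprecipitation, and the 2 together gave 1 peak list. Every library came from the same kind of cell under the same treatment, so the data locate binding and compare no conditions. The labels describe no IP from cells lacking Eomes.

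Ligands of the TNF superfamily are mostly membrane proteins that act as trimers, and some are shed. Their receptors include those with a death domain, which can recruit adaptors such as Tradd and Fadd towards caspases. Others bind TNF receptor-associated factors (Trafs), which pass the signal to NF-κB and MAP kinases. These routes are not exclusive, and some receptors are decoys. NK cells are known to kill target cells with Fas ligand and with TRAIL, the product of Tnfsf10, and to secrete TNF.

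A peak here is an interval that the authors called as enriched in an IP library over its input. Its pileup is a whole number read as the number of IP fragments at its highest point, the summit. Its fold is the authors' ratio of IP to background. Peaks of different lists that shared at least 1 bp were joined into a region, and a region with a peak in at least 2 of the 3 lists was called reproducible. Pileups depend on the depth of each library, which is not known, so they are compared between regions of a list and not between experiments. Lists 1, 2 and 3 had 37456, 33841 and 46329 intervals and smallest pileups of 8, 7 and 9, so weaker binding was not detectable. Of NK cell markers, 5 of 5 (Ncr1, Klrb1c, Prf1, Gzmb and Eomes) had a reproducible region, against 1 of 4 B cell markers (Pax5) and 1 of 4 myeloid markers (Csf1r). The share over all protein-coding genes was 43.6%. A peak in any list was found at 2 of the 4 B cell and 2 of the 4 myeloid markers. A peak at a marker does not measure its expression.

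Where Eomes summits fell in the stretch around a gene's start, that stretch can be shown. The 5 windows below, from RefSeq on GRCm38.p6 (the assembly behind mm10), run 5′ to 3′ along the gene, from 250 bases before the annotated start to 50 bases after it. They are examples, chosen after their letters were seen, of windows that hold a summit in at least 2 lists and a motif match. Capitals mark matches on either strand. The motif TGTGGT is bound by Runx factors. The motif CCGGAA is bound by ETS factors. The motif TGANTCA is bound by AP-1. They belong to Traf4 (chr11:78165501-78165800, minus strand), Tnfrsf13c (chr15:82224331-82224630, minus strand), Traf5 (chr1:192092550-192092849, minus strand), Tnfsf14 (chr17:57194132-57194431, minus strand) and Tnfrsf9 (chr4:150927749-150928048, plus strand).
Traf4: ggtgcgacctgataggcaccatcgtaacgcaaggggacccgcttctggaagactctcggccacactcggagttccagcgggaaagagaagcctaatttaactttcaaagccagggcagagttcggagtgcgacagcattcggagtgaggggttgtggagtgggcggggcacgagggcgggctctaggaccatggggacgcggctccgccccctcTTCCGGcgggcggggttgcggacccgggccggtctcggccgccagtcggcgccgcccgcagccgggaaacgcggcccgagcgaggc
Tnfrsf13c: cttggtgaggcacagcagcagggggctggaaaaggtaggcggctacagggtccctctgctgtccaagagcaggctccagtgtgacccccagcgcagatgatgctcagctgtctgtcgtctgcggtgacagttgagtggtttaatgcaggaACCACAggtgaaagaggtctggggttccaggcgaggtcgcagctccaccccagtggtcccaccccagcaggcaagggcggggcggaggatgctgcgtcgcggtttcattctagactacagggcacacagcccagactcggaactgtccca
Traf5: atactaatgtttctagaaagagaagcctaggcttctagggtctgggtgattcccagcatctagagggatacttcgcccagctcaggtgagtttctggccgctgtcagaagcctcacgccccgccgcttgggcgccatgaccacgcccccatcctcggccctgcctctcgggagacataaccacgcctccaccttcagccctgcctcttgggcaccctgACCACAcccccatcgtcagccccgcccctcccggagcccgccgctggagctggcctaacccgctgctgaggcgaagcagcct
Tnfsf14: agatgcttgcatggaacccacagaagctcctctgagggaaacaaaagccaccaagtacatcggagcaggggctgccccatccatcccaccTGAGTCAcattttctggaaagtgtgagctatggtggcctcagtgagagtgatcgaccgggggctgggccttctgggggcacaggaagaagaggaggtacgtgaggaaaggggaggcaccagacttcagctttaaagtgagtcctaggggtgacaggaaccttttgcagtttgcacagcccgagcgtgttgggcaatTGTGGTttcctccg
Tnfrsf9: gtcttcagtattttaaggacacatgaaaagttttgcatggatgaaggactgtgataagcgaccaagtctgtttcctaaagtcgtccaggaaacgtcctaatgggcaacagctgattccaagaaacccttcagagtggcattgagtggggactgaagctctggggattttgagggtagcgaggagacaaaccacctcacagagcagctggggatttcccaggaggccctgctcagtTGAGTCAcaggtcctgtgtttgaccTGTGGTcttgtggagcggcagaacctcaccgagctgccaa
The window of Traf4 holds an ETS match, those of Tnfrsf13c and Traf5 a Runx match each, and those of Tnfsf14 and Tnfrsf9 a Runx and an AP-1 match.

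RefSeq windows were found for 40 of the 51 genes (44 windows), and 18 of the 44 shared at least 1 bp with a reproducible region. The T-box half-site AGGTGTGA was in 0 of 44 windows, against 0.869% of all 7941 bound windows and 1.28% of all 32851 promoter windows. The shorter GGTGTGA was also in 0 of 44, against 3.75% of bound windows and 3.98% of all windows. Both were thus in 0 of the 18 bound windows. TGTGGT was in 6 of the 18 bound windows (33.3%), against 12.5% of all bound windows and 16.8% of all windows. CCGGAA was in 5 of the 18 (27.8%), against 34.9% of all bound windows and 14.9% of all windows. TGANTCA was in 3 of the 18 (16.7%), against 4.23% and 7.81%. These shares describe letters in a window, and 1 window more or less moves the share of 18 by several points. The 3 motif kinds do not overlap each other in the windows printed. Windows that start at other transcripts, and sites in introns or between genes, were not searched.

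A reproducible region was assigned to 33 of the 51 genes (64.7%, Wilson 95% interval 51.0 to 76.4), against 43.6% of all protein-coding genes. A region in all 3 lists was assigned to 26 of 51 (51.0%), against 28.8%, and a peak in any list to 47 of 51 (92.2%), against 71.2%. Reproducible promoter regions were found at 25 (49.0%), against 37.2%, and regions outside promoters at 17 (33.3%), against 15.1%. The difference was present in every list: list 1 had a peak at 41 of 51 genes (80.4%), against 54.1% of all genes. List 2 had one at 37 (72.5%), against 54.0%, and list 3 at 39 (76.5%), against 60.1%. These genes' share exceeded that of the other genes by 20.4 ± 5.21 percentage points (SD, n = 3). All intervals of shares here and below cover counting error only, and genes are not replicates of the experiment.

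By role, 10 of 18 ligands (55.6%), 15 of 24 receptors (62.5%) and 8 of 9 adaptors (88.9%) had a reproducible region. Tnfsf12 and Tnfsfm13, its joint transcript unit with Tnfsf13, overlap and are both counted among the 10, so the 10 are not all separate loci. Each of the 10 ligands had a region in all 3 lists, whereas 9 of the 15 receptors and 7 of the 8 adaptors did. Of all ligands, receptors and adaptors these were 55.6, 37.5 and 77.8%, against 28.8% of all protein-coding genes. A promoter region was found at 7 ligands (38.9%), 11 receptors (45.8%) and 7 adaptors (77.8%), against 37.2% of all genes. A region outside promoters was found at 5 ligands (27.8%), 9 receptors (37.5%) and 3 adaptors (33.3%), against 15.1%. With 9 adaptors the interval on their share with a reproducible region ran from 56.5 to 98.0%. It overlaps those of the ligands (33.7 to 75.4%) and the receptors (42.7 to 78.8%).

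**Figure D1:**
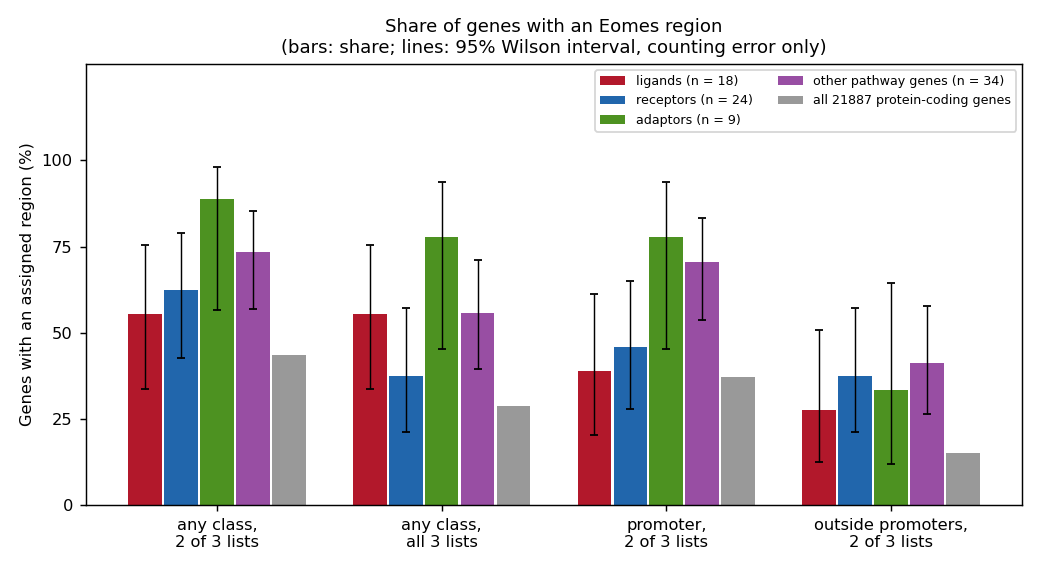
Share of genes (vertical axis, %) with an assigned Eomes region, for ligands, receptors, adaptors, other genes of the pathway and all protein-coding genes, under 4 ways of counting regions. Lines are 95% Wilson intervals: 88.9% of adaptors had a region in at least 2 lists, against 43.6% of all genes.

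The genes drew 205 regions, of which 63 were reproducible (34 in all 3 lists and 29 in 2) and 142 came from 1 list. Without experiment 3 there were 35 reproducible regions. The reproducible share was 30.7%, against 23.8% of all 84399 regions. Of the 63, 33 (52.4%, interval 40.3 to 64.2) lay in the promoter class, within 3000 bp of an annotated start, against 59.1% of all reproducible regions. A further 12 were distal intergenic (19.05%, against 18.07% of all reproducible regions) and 10 intronic (15.87%, against 17.99%). Another 2 were exonic (3.17%, against 2.68%) and 1 was in a 3′ UTR (1.59%, against 1.14%). The remaining 5 were in the class just downstream of a gene (7.94%, interval 3.44 to 17.3), against 0.944% of all reproducible regions; they were assigned to Traf1, Tnfsf14, Tnfrsf13c, Tnfrsf1b and Ltbr. The class names the position relative to any gene, so the region of this class assigned to Tnfrsf1b lies upstream of Tnfrsf1b itself. Adaptor regions were in promoters in 10 of 13 cases, receptor regions in 16 of 36 and ligand regions in 7 of 14.

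The strength of these sites was ordinary. The median of the mean fold was 4.68 over the 63 regions (3.17 to 20.0) and 4.84 over all 20126 reproducible regions. Over regions in all 3 lists it was 4.83 for the 34 of these genes and 5.70 for all 10328. Summits of the 3 lists had a median spread of 68 bp (4 to 374 bp) over the 34. Joining peaks by overlap bounds this spread in advance: the median width of the 63 regions was 325 bp. The spread was not taken over all 10328 regions. For 32 of the 34, every pair of lists overlapped directly, and the exceptions, Ltb and the region of Tnfrsf12a at +1555 bp, were joined through experiment 3. Of the 29 regions in 2 lists, list 1 lacked a peak at 11 (37.9%), list 2 at 15 (51.7%) and list 3, which has the most intervals, at 3 (10.3%). Over all 9798 regions in 2 lists, the shares lacking list 1, 2 and 3 were 42.8, 43.5 and 13.7%.

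**Figure D2:**
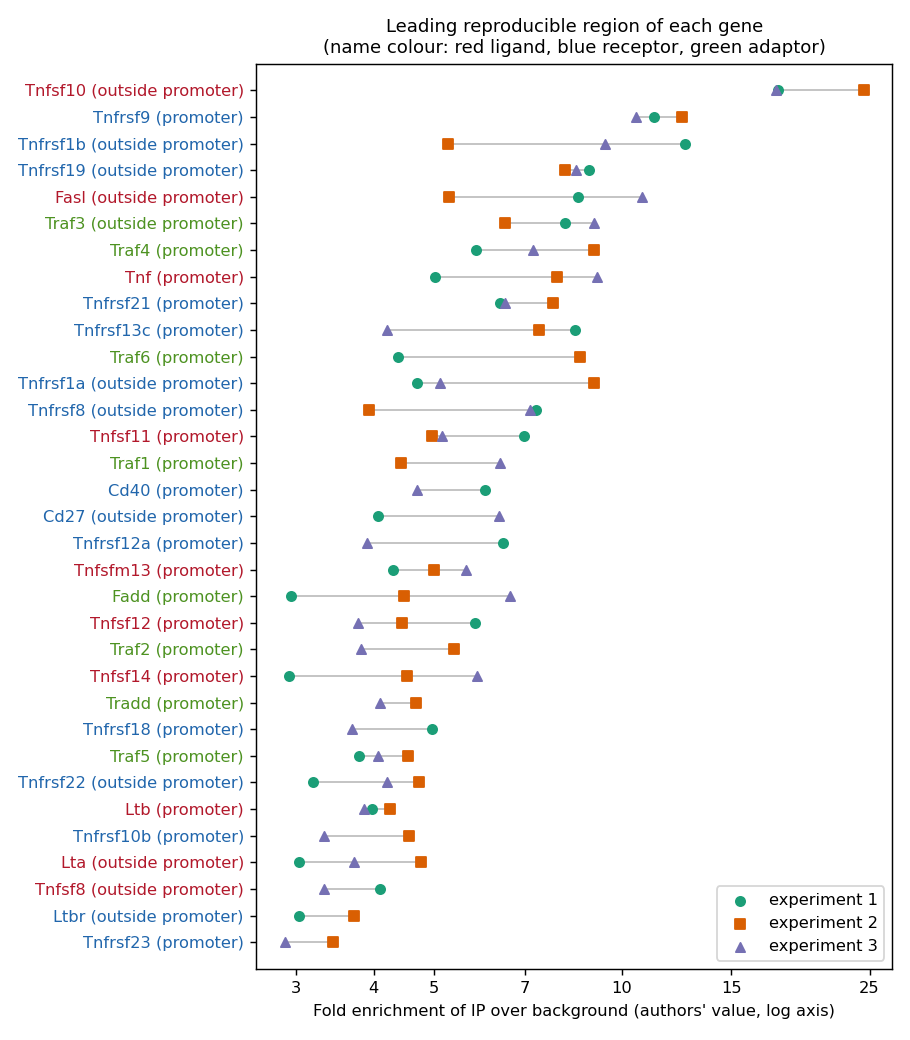
Fold enrichment (horizontal axis, log scale, authors' value) of the best-ranked reproducible region of each of the 33 genes, 1 point per experiment with a peak, joined by a line. Tnfsf10 stands right of the others at a mean of 20.0, and 15 of the 33 regions have a mean under 5.

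Among ligands, the strongest site belonged to Tnfsf10, the gene of TRAIL. It lay in intron 1 of 4 (chr3:27322486-27323245), 5576 bp downstream of the start. Its pileup was 87, 72 and 125 in experiments 1, 2 and 3, and its fold 17.8, 24.4 and 17.7, a mean of 20.0 ± 3.86 (SD, n = 3). The summits lay within 4 bp of each other in the 3 experiments. By mean rank of the q-value it stood at position 29 of the 10328 regions found in all 3 lists, and no other region of these genes had a higher mean fold. Tnfsf10 had 8 more regions in 1 list each, including a promoter peak in experiment 2 (pileup 15, fold 6.62), so its promoter had no reproducible region.

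Fasl, the ligand of the death receptor Fas, had 3 regions in all 3 lists, more than any other ligand. The strongest lay 21475 bp from the start, beyond the gene's end (chr1:161766697-161767020), with pileups of 28, 17 and 48 and a fold of 8.20 ± 2.76. A region at −15990 bp, upstream of the gene, had pileups of 20, 13 and 30 and a fold of 4.73 ± 0.94. The promoter region at 174 bp had pileups of 11, 12 and 22 and a fold of 3.87 ± 0.42. In each experiment the distant downstream region had the largest pileup of the 3, and the promoter region the smallest.

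Tnf, Lta and Ltb encode TNF, lymphotoxin α and lymphotoxin β, and lie side by side within 11072 bp on chromosome 17. The Tnf region was 1230 bp from the start, inside the gene (chr17:35200172-35200790), with pileups of 41, 35 and 64 and a fold of 7.34 ± 2.11. The region assigned to Lta lay at −4908 bp, upstream of the gene, with pileups of 14, 17 and 32 and a fold of 3.84 ± 0.87. The Ltb region covered the start, with pileups of 11, 10 and 13 and a fold of 4.03 ± 0.20. In every experiment the pileup at Tnf was above those at Lta and Ltb. Within 10000 bp of the 3 genes there were 7 reproducible regions, 4 of them in all 3 lists, and 4 without experiment 3. Of the 4 that the files assign elsewhere, 1 lay over Ltb (assigned to Mir6973a, fold 5.78 ± 0.96, in experiments 2 and 3) and 1 over Lta (assigned to Mir6974, fold 5.03 ± 0.16, in experiments 1 and 3), while 2 were assigned to Lst1.

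Tnfsf14 encodes LIGHT, a ligand of the herpesvirus entry mediator and of the lymphotoxin β receptor. Its promoter region, over the window printed above, had pileups of 12, 13 and 22 and a fold of 4.44 ± 1.47. A second region 4894 bp from the start, past the gene's end, had pileups of 16, 9 and 21 and a fold of 3.68 ± 0.90. Neither of the 2 was larger in all 3 experiments.

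The other 4 ligands with a reproducible region had mean folds between 3.71 and 5.70. Tnfsf11, the osteoclast ligand RANKL, had a promoter region at 815 bp with pileups of 19, 11 and 20 and a fold of 5.70 ± 1.11. Tnfsf12, which encodes TWEAK, had a region at 2945 bp with a fold of 4.68 ± 1.04, and Tnfsfm13, the joint transcript unit of Tnfsf12 and Tnfsf13, had a region over a start with a fold of 4.98 ± 0.67. Both regions lie over both annotated genes, so the assignment between them is uncertain. Tnfsf8, the ligand of CD30, had 2 intergenic regions, at −14906 bp (fold 3.93 ± 0.34, in all 3 lists) and at −11171 bp (fold 3.71 ± 0.54, in experiments 1 and 3).

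Among receptors, Tnfrsf1b carried the most sites. It encodes TNF receptor 2, the receptor that binds Trafs and lacks a death domain. It had 10 reproducible regions, 5 of them in all 3 lists, and 57 of the 9547 genes with a reproducible region (0.597%) had as many or more, the median being 1. All 5 of its regions in 2 lists had a peak in experiment 3. Without that experiment its count was 5, and 132 of 6647 genes (1.99%) had as many or more. The strongest, in an intron 10443 bp from the start (chr4:145236071-145236448), had pileups of 37, 21 and 66 and folds of 12.6, 5.27 and 9.40, a mean of 9.11 ± 3.70. The next, upstream at −7548 bp, had pileups of 23, 16 and 32 and a fold of 6.86 ± 1.50. In each experiment the intronic region had the largest pileup of the 10. The promoter region itself was in experiments 2 and 3 only, with pileups of 12 and 13 and a fold of 4.15 ± 1.20. One more intronic region in all 3 lists was assigned to the neighbour Vps13d (fold 5.78 ± 0.37).

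Tnfrsf8 encodes CD30, and its end lies 20262 bp upstream of the start of Tnfrsf1b on chromosome 4. It had 4 reproducible regions (1 without experiment 1, and 1 without experiment 3), and the one in all 3 lists was intronic, 14614 bp from the start (chr4:145299895-145300633), with pileups of 21, 17 and 27 and a fold of 6.12 ± 1.89. Its promoter region had pileups of 12 in experiment 1 and 30 in experiment 3 (fold 5.19 ± 0.81). Over the 102797 bp that hold both genes, with 10000 bp on each side, there were 14 reproducible regions, 7 of them in all 3 lists, and 7 without experiment 3.

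**Figure D3:**
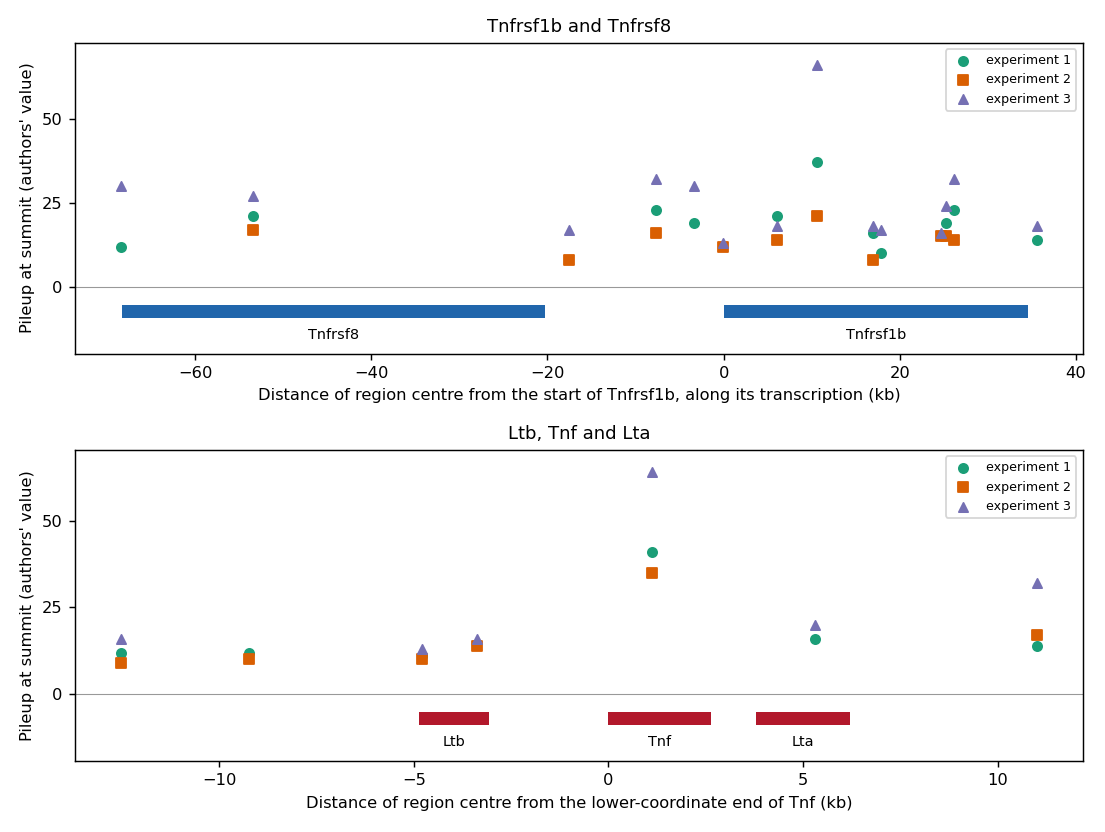
Pileup at the summit (vertical axis, authors' value) of every reproducible region near Tnfrsf1b and Tnfrsf8 (upper panel) and near Ltb, Tnf and Lta (lower panel), by distance in kb, 1 point per experiment, with bars for the genes. Distance runs along the transcription of Tnfrsf1b, against the chromosome coordinates, in the upper panel and along the chromosome in the lower. The intronic Tnfrsf1b region at 37, 21 and 66 and the Tnf region at 41, 35 and 64 stand above their neighbours in all 3 experiments.

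Tnfrsf9 encodes the costimulatory receptor CD137, and it held the second strongest leading region. The region (chr4:150924130-150925140) lay at −535 bp from an annotated start but 4440 bp inside the RefSeq gene, with pileups of 49, 33 and 65. Its fold was 11.3, 12.5 and 10.6, a mean of 11.4 ± 0.97, and it stood at position 395 of the 10328. A further 2 Tnfrsf9 regions were in 2 lists (the count of 3 was 1 without experiment 3), one at 1083 bp (pileups of 13 and 21 in experiments 2 and 3) and one over a start 7843 bp inside the gene, the window printed above (pileups of 18 and 28 in experiments 1 and 3). The leading region and the last lie over 3000 bp from the RefSeq start and are in the promoter class through inner annotated starts.

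Tnfrsf1a encodes TNF receptor 1, which carries a death domain. Its leading region was intronic, −3421 bp from the nearest annotated start and 4096 bp inside the gene (chr6:125353478-125354016), with pileups of 15, 20 and 22 and a fold of 6.28 ± 2.40. The spread was wide: the fold was 4.69, 9.04 and 5.11. Its 3 other regions were each in 2 lists, with mean folds of 5.11, 3.93 and 3.72, and without any 1 experiment its count was 2.

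Ltbr, the lymphotoxin β receptor, and Cd27, the receptor of Cd70, are in the same stretch of chromosome 6 as Tnfrsf1a. Ltbr had 1 region 3207 bp from the start, past a gene's end, with pileups of 8 and 8 in experiments 1 and 2 and a fold of 3.38 ± 0.49. Cd27 had 1 region at −4658 bp, in an exon of the neighbour Vamp1, with pileups of 16 and 24 in experiments 1 and 3 and a fold of 5.22 ± 1.63. Neither had a reproducible region over its own gene body. Of 9 reproducible regions over this stretch (5 without experiment 1), 6 were assigned to these 3 receptors. The strongest was assigned to Tuba3a, with pileups of 27, 21 and 36 and a fold of 8.58 ± 3.07.

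Tnfrsf19, which encodes the receptor TROY, had an intergenic region at −9756 bp (chr14:61056520-61056957) with pileups of 24, 20 and 37. Its fold was 8.88, 8.11 and 8.45, a mean of 8.48 ± 0.38. Tnfrsf21, which encodes death receptor 6, had a region at 880 bp (chr17:43017435-43017701) with pileups of 17, 17 and 34 and a fold of 6.89 ± 0.75, and 2 regions more in experiments 1 and 3, so that its count was 1 without either. One of these lay in the 3′ UTR, 71205 bp from the start (fold 4.38 ± 0.17).

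Tnfrsf13c, the receptor for the B cell survival factor BAFF, had a promoter region at −30 bp (chr15:82224345-82224653) over the window printed above. Its pileups were 24, 21 and 13 and its fold 8.43, 7.37 and 4.20, a mean of 6.67 ± 2.20, with the lowest fold in experiment 3. Tnfrsf12a, the receptor of TWEAK, had a region at 1555 bp in all 3 lists (fold 4.74 ± 0.46) and one over the start in experiments 1 and 3 (fold 5.18 ± 1.80). The region at 1555 bp also held a peak assigned to Thoc6, so its assignment is uncertain. It was the only Tnfrsf12a region in all 3 lists. Cd40, the costimulatory receptor of antigen-presenting cells, had a region at 1829 bp with a pileup of 16 in both experiments 1 and 3 (fold 5.36 ± 0.95).

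Tnfrsf18, which encodes GITR, had a promoter region at −104 bp with pileups of 13 and 12 in experiments 1 and 3 (fold 4.33 ± 0.91). Its neighbour Tnfrsf4, which encodes OX40, had no peak in any list. Tnfrsf10b, the mouse receptor of TRAIL with a death domain, had a promoter region with pileups of 10 and 14 in experiments 2 and 3 (fold 3.94 ± 0.86). Tnfrsf22 and Tnfrsf23, mouse decoy receptors of TRAIL, had folds of 4.05 ± 0.78 (in all 3 lists, −3221 bp) and 3.17 ± 0.39 (in experiments 2 and 3, over the start). The last of these was the lowest mean fold of the 63 regions.

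**Figure D4:**
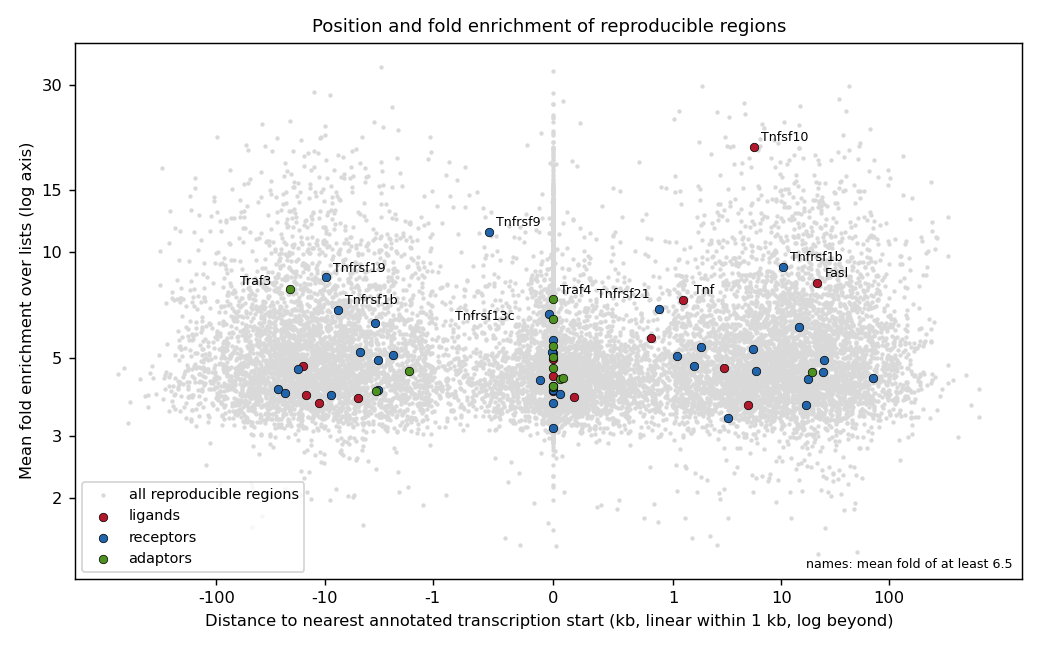
Mean fold enrichment (vertical axis, log scale) of each reproducible region against its distance from the nearest annotated transcription start (horizontal axis, kb), with regions of ligands, receptors and adaptors in colour over all 20126 regions in grey. Among the coloured regions, those with the highest mean fold, at Tnfsf10 (20.0) and Tnfrsf9 (11.4), both lie off the annotated start.

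Among adaptors, Traf4 and Traf3 had the strongest sites. Traf4 encodes an adaptor with roles in development, and its promoter region covered the start (chr11:78165496-78166109) with pileups of 18, 20 and 23 and a fold of 7.36 ± 1.61. Its summits lay at −79, −67 and −99 bases from the start, inside the window printed above. Traf3, which restrains the alternative NF-κB pathway, had an intronic region 61261 bp inside the gene (chr12:111227424-111227725) with pileups of 31, 21 and 40 and a fold of 7.88 ± 1.28. The Traf3 summits lay within 4 bp of each other. A second region over the Traf3 gene was assigned to 4930595D18Rik, with pileups of 60, 30 and 49 and a fold of 14.1 ± 2.99, so in each experiment it had a higher pileup than the region assigned to Traf3.

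Traf1 is an adaptor without the RING domain of its relatives and is itself induced by NF-κB, and Traf2 is the partner it binds. Traf1 had 3 reproducible regions: one over its start with pileups of 14 and 25 in experiments 2 and 3 (fold 5.40 ± 1.37), one over an inner start with pileups of 15, 15 and 17 (fold 4.16 ± 0.53), and one 19147 bp from a start, past the gene's end, with pileups of 17, 10 and 19 (fold 4.55 ± 0.76). Their mean folds differed by less than the largest of the SDs. Traf2 had a promoter region in all 3 lists with pileups of 14, 15 and 24, at folds of 2.53, 5.74 and 6.80 (mean 5.02 ± 2.22), and 2 regions more in 2 lists, and its count was 1 without experiment 3.

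Traf5, an adaptor of costimulatory receptors, had a promoter region over the start with pileups of 14, 18 and 28 and a fold of 4.14 ± 0.38. Summits in the 3 experiments lay at 31, −10 and −36 bases from the start. A further 3 regions over the Traf5 gene, each in all 3 lists, were assigned to Gm26879, with mean folds of 8.15, 5.58 and 5.12, all above that of the promoter region. Traf6, which also serves Toll-like and interleukin-1 receptors, had a promoter region with pileups of 12 and 19 in experiments 1 and 2 and a fold of 6.47 ± 2.96.

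Fadd and Tradd are the death-domain adaptors. Fadd, which couples Fas and TRAIL receptors to caspases, had a promoter region with pileups of 15, 12 and 25 and a fold of 4.68 ± 1.85. Tradd, which binds TNF receptor 1, had a promoter region at 60 bp with pileups of 11, 11 and 13 and a fold of 4.36 ± 0.71. A second Tradd region, 4674 bp inside the gene, had pileups of 10 and 21 in experiments 2 and 3 (fold 4.38 ± 0.41).

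**Figure D5:**
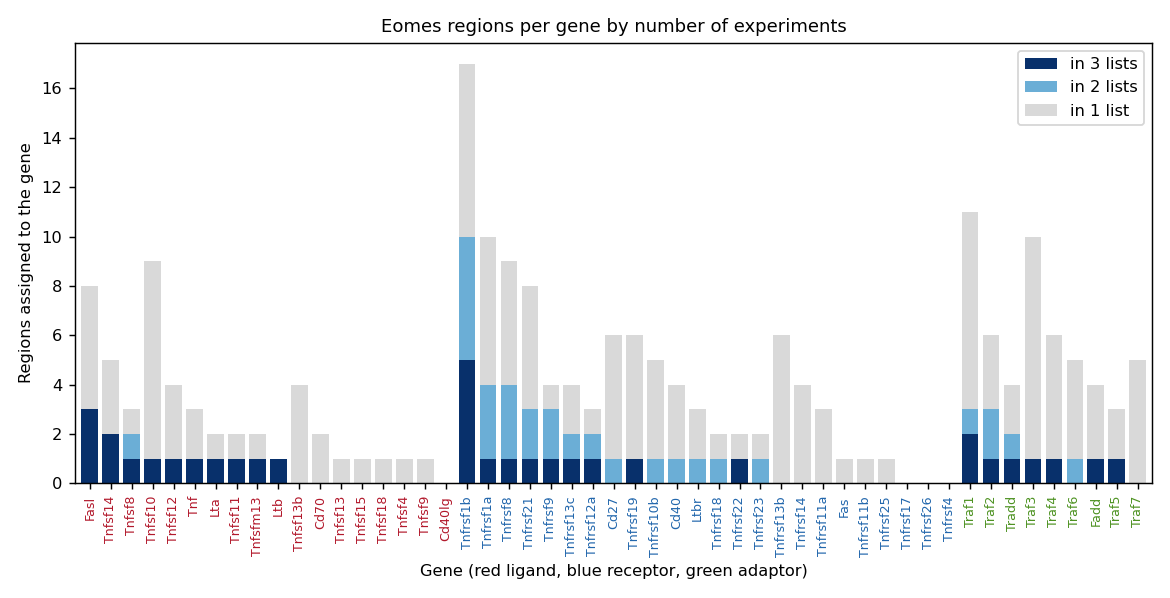
Number of regions assigned to each of the 51 genes (vertical axis), split by the number of lists that hold them, with genes along the horizontal axis grouped as ligands, receptors and adaptors. Tnfrsf1b has 10 reproducible regions, 20 genes have 1, and 18 have none.

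Of the 33 genes with a reproducible region, 20 had 1, 5 had 2 and 8 had 3 or more. Over all 9547 protein-coding genes with a reproducible region, 1460 (15.3%) had 3 or more. Among the 33, promoter regions alone were found at 16, regions outside promoters alone at 8 and both kinds at 9. The best-ranked region was in the promoter class for 21 genes and outside it for 12. The promoter class was wide, however: of the 33 promoter-class regions 24 lay inside the RefSeq gene, 14 of them more than 500 bp past its start. Of the 30 regions outside promoters, 11 lay inside the gene, 14 upstream and 5 downstream of it.

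The other 18 genes had no reproducible region. Cd40lg, Tnfrsf17, Tnfrsf26 and Tnfrsf4 had no peak in any list. A further 8 had peaks in 1 list (Fas, Tnfrsf11b, Tnfrsf25, Tnfsf13, Tnfsf15, Tnfsf18, Tnfsf4 and Tnfsf9) and 4 in 2 lists without overlap (Cd70, Tnfrsf11a, Tnfrsf13b and Tnfrsf14). Tnfsf13b and Traf7 had peaks in all 3 lists that did not overlap. Fas, the receptor of Fas ligand, had 1 promoter peak, in experiment 2, with a pileup of 10 and a fold of 4.33. Tnfrsf14, the receptor of LIGHT, had 4 peaks with pileups of 11, 8, 11 and 9, and Tnfrsf25, the receptor of Tnfsf15, had 1 in experiment 1 with a pileup of 11. Cd70 had peaks with pileups of 8 in experiment 2 and 12 in experiment 3. Other peaks were higher. In experiment 3, Traf7 had pileups of 16 and 18, Tnfrsf13b 17 and Tnfsf15 15, against a median of 14 over that list. Tnfrsf11a had pileups of 13 in experiment 1 and 12 in experiment 2, against medians of 12 and 11. No reproducible region lay over the body of any of the 18 genes, and 7 of them had no peak of any kind there.

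Ligands and their receptors were not always both covered. Fasl had a reproducible region and Fas had none, and Tnfsf14 had one whereas its receptor Tnfrsf14 had none and its receptor Ltbr had one. For Tnfsf9 and Tnfrsf9, and for Cd70 and Cd27, the receptor had a reproducible region and the ligand had none. Tnfsf10 and its receptor Tnfrsf10b, Tnfsf12 and Tnfrsf12a, Tnfsf8 and Tnfrsf8, and Tnf with Tnfrsf1a and Tnfrsf1b were covered on both sides. Tnfsf4 and Tnfrsf4, and Tnfsf15 and Tnfrsf25, were covered on neither. Tnfsf11 was covered and Tnfrsf11a was not, whereas Cd40, Tnfrsf13c and Tnfrsf18 were covered and Cd40lg, Tnfsf13b and Tnfsf18 were not.

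Further genes of the pathway, from a list of 34, were covered in 25 cases (73.5%, interval 56.9 to 85.4), against 43.6% of all genes. Among genes of ubiquitin chains and kinases the count was 13 of 14, among brakes on the pathway 5 of 5, among receptor complexes and death genes 5 of 9, and among superfamily members and adaptors with other symbols 2 of 6. The strongest sites were promoter regions of Cyld, which removes ubiquitin chains (fold 15.0 ± 4.08), and of Birc3, a ubiquitin ligase bound by Traf2 (13.4 ± 4.10). Ikbkb, a kinase that activates NF-κB, had a region at −22204 bp (11.8 ± 5.91). Tnfaip3, which encodes the ubiquitin editor A20, had a promoter region with a fold of 8.68 ± 2.19. Tab2, an adaptor of the kinase Map3k7, was assigned 12 reproducible regions, 3 of them in promoters. Of the 9547 protein-coding genes with a reproducible region, 36 had more than 10. One of the Tab2 regions, with a fold of 7.39 ± 1.13, lay as far as −257887 bp from the start. Eda, Eda2r, Birc2 and Xiap had no peak, and Edar, Ngfr, Ripk3, Casp8 and Map3k7 had peaks but no reproducible region.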

How the data were processed

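Anti-Eomes IP and input libraries of 3 experiments were analysed as 3 peak lists, each called against the input of the same replicate per the sample descriptions in the labels. The submitters' processing notes name the build mm10, the read aligner Novoalign and the peak annotation tool ChIPseeker. Peaks were called by a caller not given in the sources used here. Per the file headers, each peak has a pileup (a signal value), a fold enrichment (a ratio) and a −log10 p-value and −log10 q-value, all deposited by the authors and used as they stand. Depth per library is unknown.

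Sub-peaks were collapsed to the one with the highest −log10 q-value per interval, intervals sharing at least 1 bp were merged, and regions in at least 2 of 3 lists were kept (Python 3.11.15, pandas 2.3.3). All 84399 merged regions had the same chromosome, start, end and number of lists in bedtools 2.31.1, and the merging was tested on simulated intervals. A region took the gene, class and distance of its best-ranked peak in the deposited annotation, in which a distance is signed, negative upstream, and runs to the nearest annotated transcript start. A fold is given as mean ± SD over the experiments with a peak (n = 3, or 2 where 2 experiments are named). Protein-coding genes came from RefSeq GRCm38.p6 on 21 main chromosomes. No test was run: the members, lists and roles were chosen with earlier results of these data known, and shares are set beside those of all genes. All genes with a reproducible region are named, with values in every experiment for the leading region of the 12 best-ranked among regions in all 3 lists and for a fixed list of 25 genes known in NK cell biology or signalling; some others are given by their mean. Motifs were planned for the regions, which was not possible without a genome, so 300 bp promoter windows were searched instead. Experiments are separate, but mice were pooled, so an SD is between pools.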

Additional observations from a re-analysis of the deposited data

How the results depend on the processing

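Counts of covered genes held within 1.5 times under every alternative tried: 33 genes had a reproducible region, 32 with reciprocal overlap of 50%, 29 with a −log10 q-value of at least 3, 26 in all 3 lists, 32 by position within 3000 bp of the gene, 25 with promoter regions only, and 33 where any peak may assign a region (an alternative added after seeing the data). The 32 by position gained Tnfsf13 and Tnfrsf17 and lost Tnfrsf19, Tnfrsf22 and Tnfsf8. Leaving out an experiment gave 26 to 29 genes, 35 to 49 regions, a promoter share of 46.9 to 55.6% and 19 to 23 pathway genes. Without experiment 1, 2 and 3 the genes numbered 28, 29 and 26. Over all protein-coding genes, 8021, 7726 and 6647 then had a reproducible region, against 9547 with all 3 lists. With reciprocal overlap or the q-value limit, the count over all genes was not taken. The 63 regions fell to 34 when all 3 lists were needed and to 35 without experiment 3, where a region needs every list left. Counts per gene and cluster without each experiment, given above, were chosen after seeing the data. Without experiment 3, Cd27, Cd40, Ltb, Tnfrsf10b, Tnfrsf12a, Tnfrsf18 and Tnfrsf23 lost their region; without experiment 1, Cd27, Cd40, Ltbr, Tnfrsf18 and Traf6; without experiment 2, Ltbr, Tnfrsf10b, Tnfrsf23 and Traf6. At a −log10 q-value of at least 3, Ltbr, Tnfrsf10b, Tnfrsf23 and Tnfsf8 lost theirs. Keeping the sub-peak with the highest pileup left the mean fold of each of the 33 leading regions unchanged. Leaving out 1 of 3 or 2 values cannot move a mean by 1 SD, so the folds without an experiment are no check. No paired analysis was possible because each list already sets an IP library against its own input, and the input has no values of its own. The motif share of the regions, and its alternatives, were not run. Depth is unknown, so sites below the smallest pileups, and genes without a peak, cannot be read as unbound.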
